A study of Homo sapiens with 18 samples.

Results

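Homologous recombination genes and the Fanconi genes that work with them were followed through knockdown of protein disulphide isomerases in LNCaP cells, a line derived from a human prostate cancer metastasis. The members were the rows whose gene symbol was on a list of 38 genes, out of 59385 genes in the table. They were split by what is known of their transcription through the cell cycle into 19 cycle-linked members, whose transcripts peak around S phase, and 19 constitutive members. The classes were written with earlier results of these data known, so a difference between them is no test of the class. The class of 6 constitutive members (PALB2, CHEK2, RMI1, FANCE, FANCG and FANCM) was uncertain. All cells grew in medium with 10% fetal bovine serum and were transfected with an siRNA by the lipid reagent RNAiMAX. There were 6 groups of 3 libraries: the control siRNA (siNC), siPDIA1 against PDIA1 (gene symbol P4HB) and siPDIA5 against PDIA5, each at 48 h and at 96 h. The 18 libraries were stranded libraries of polyadenylated RNA with 15 cycles of amplification. No siRNA sequence is stated in the sources read. Nothing in the labels tells whether replicate libraries are separate cultures, so p-values reflect the spread between libraries, which may be technical.

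Homologous recombination repairs a double-strand break by copying the sister chromatid, so it is used mainly in S and G2 phase. The MRN complex and its partners resect the broken ends, BRCA1 and its partners load a recombinase on the single strand with BRCA2, and the recombinase paralogs and RAD54 proteins help it invade the sister. The joined molecules are then separated by the BLM complex or cut by nucleases. The Fanconi pathway senses a crosslink between DNA strands at a stalled fork. Its core complex ubiquitinates FANCD2 and FANCI, which call in nucleases and recombination factors. Many of these genes are transcribed by E2F factors at the start of S phase, which links their RNA to proliferation.

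Values were RPKM, reads per kilobase of gene scaled for the reads of a library, as the authors deposited them. Log2 fold changes are on the log2(RPKM + 1) scale with the standard error of a limma fit, and understate the change of low genes. A gene is said to have risen or fallen where its Benjamini-Hochberg adjusted p over the 11685 tested genes (mean RPKM of at least 1) was under 0.05. This filter passed 29 members, 14 cycle-linked and 15 constitutive. Each library had an estimated 29.2 to 43.9 M reads on genes, and replicates correlated across genes with r of 0.971 to 0.993. The library farthest from its group was siPDIA1 96 h replicate 1. The most genes above 0 were in siPDIA1 96 h replicate 3, with 29505 against a median of 23387 over the libraries. P4HB fell from 66.9 ± 0.761 RPKM with siNC to 5.73 ± 0.458 with siPDIA1 at 48 h (SD, n = 3), and PDIA5 fell to 1.55 RPKM with siPDIA5. With siPDIA5, P4HB rose to 129 RPKM at 48 h (adjusted p = 2.35e-08). At 96 h P4HB was at 124 RPKM with siPDIA5, against 68.9 with siNC (adjusted p = 4.29e-08). Both siRNAs are compared with the same siNC libraries at each time. Luminal prostate genes were high in all libraries, and 14 of 16 markers of basal, stromal, blood and endothelial cells were under 1 RPKM in every library.

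The promoters of several members hold the short motif that E2F factors bind. It was searched as the letters TTCCCGC, then as TTGGCGC, then as TTGCCGC and then as TTCGCGC, on either strand, from 250 bases before to 50 after the start, in RefSeq windows of GRCh38.p14. Some genes have several windows. The motif stood in 13 of 22 windows of cycle-linked members (59.1%), in 10 of 23 of constitutive members (43.5%) and in 13% of all 35116 windows. Counted by gene, at least 1 window held it in 12 of 16 cycle-linked and 8 of 18 constitutive members. RMI2, FANCI and RAD54B of the cycle-linked class and NBN of the constitutive class had no window and were not counted. A stricter form with 1 more T at its 5′ end was in 22.7% of cycle-linked, 8.7% of constitutive and 3.31% of all windows. The shorter form was chosen after the result of the longer one was seen. The CHR motif of late cell cycle genes (TTTGAA or TTCGAA) was in 4.55%, 8.7% and 16.4% of these windows, and CCAAT in 45.5%, 43.5% and 34.6%. A match is a description of letters and not evidence of binding.

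The windows below are those of 5 cycle-linked and 2 constitutive members that the results turn on, in lower case with E2F motifs in capitals. BRCA1 and BARD1 are shown because they encode partners whose RNA moved in opposite directions with siPDIA5, RAD51AP1, FANCD2 and EXO1 because they fell in most comparisons, and FANCC and FANCF because they fell although classed as constitutive. The BRCA1 window shown is chr17:43125315-43125614 on the minus strand, that of BARD1 is chr2:214809634-214809933 on the minus strand and that of RAD51AP1 is chr12:4538640-4538939 on the plus strand. FANCD2 is at chr3:10026187-10026486 on the plus strand, EXO1 at chr1:241847954-241848253 on the plus strand, FANCC at chr9:95317660-95317959 on the minus strand and FANCF at chr11:22625774-22626073 on the minus strand.
BRCA1: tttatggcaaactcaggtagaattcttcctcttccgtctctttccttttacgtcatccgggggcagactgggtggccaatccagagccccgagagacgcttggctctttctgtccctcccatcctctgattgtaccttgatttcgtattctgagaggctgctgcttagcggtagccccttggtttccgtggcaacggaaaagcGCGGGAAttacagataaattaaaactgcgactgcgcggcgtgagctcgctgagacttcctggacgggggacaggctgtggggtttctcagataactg
BARD1: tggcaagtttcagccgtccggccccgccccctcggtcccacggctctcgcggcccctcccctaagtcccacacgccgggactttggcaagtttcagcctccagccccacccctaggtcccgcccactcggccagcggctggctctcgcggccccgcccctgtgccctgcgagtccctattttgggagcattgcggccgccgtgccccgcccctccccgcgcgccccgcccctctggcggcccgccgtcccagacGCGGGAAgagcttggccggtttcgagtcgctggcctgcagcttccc
RAD51AP1: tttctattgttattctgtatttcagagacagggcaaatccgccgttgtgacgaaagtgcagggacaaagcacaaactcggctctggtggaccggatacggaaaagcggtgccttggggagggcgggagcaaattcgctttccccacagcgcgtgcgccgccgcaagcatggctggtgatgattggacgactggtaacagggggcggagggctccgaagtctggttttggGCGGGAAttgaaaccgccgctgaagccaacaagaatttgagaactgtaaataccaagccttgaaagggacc
FANCD2: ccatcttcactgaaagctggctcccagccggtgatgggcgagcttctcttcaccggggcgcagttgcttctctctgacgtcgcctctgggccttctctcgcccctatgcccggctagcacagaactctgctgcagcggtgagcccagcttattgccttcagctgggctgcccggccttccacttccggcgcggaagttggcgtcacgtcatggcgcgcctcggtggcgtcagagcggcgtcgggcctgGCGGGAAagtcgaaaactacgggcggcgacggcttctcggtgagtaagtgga
EXO1: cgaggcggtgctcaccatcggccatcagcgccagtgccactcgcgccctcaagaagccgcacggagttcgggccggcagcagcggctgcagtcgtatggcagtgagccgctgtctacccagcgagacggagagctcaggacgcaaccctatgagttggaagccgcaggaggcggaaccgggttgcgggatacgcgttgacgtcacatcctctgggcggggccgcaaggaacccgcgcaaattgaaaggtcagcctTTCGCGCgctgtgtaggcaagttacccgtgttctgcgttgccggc
FANCC: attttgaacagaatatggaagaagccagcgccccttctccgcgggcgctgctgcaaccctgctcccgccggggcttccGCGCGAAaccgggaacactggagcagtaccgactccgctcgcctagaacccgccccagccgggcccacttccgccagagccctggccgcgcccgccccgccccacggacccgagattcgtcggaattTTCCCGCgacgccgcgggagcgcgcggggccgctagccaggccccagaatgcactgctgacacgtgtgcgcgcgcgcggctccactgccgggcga
FANCF: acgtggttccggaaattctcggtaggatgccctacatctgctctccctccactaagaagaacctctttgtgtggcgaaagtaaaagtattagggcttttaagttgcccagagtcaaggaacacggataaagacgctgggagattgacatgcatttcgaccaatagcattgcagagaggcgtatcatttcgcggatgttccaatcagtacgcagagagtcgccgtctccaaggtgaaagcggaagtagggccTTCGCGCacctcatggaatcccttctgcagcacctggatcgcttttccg
These windows were chosen because they hold the motif, and the other windows of BRCA1 and EXO1 hold none. The motif stands also in the window of BARD1, the cycle-linked member that rose, and 2 times in that of FANCC. Members with no motif in any window fell too, among them CHEK1, MRE11, RAD51C and CHEK2, each in 3 comparisons with siNC.

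Most tested cycle-linked members fell with siPDIA5 at both times and with siPDIA1 at 96 h, and fewer fell with siPDIA1 at 48 h. With siPDIA1 at 48 h, 6 of the 14 tested cycle-linked members fell and none rose, and their median log2 fold change was -0.22. Of the 15 tested constitutive members 2 fell and 1 rose (median -0.10). Of all tested genes 33.4% were called there, 17.4% lower, with a median of -0.01. With siPDIA1 at 96 h, 12 cycle-linked members fell and 1 rose (median -0.41), and 8 constitutive members fell and none rose (median -0.26). The background at that time was 45.3% called, 20.1% higher and 25.2% lower. The count of 6 at 48 h was 3 without siPDIA1 48 h replicate 2.

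With siPDIA5 at 48 h, 13 cycle-linked members fell and 1 rose (median -0.58), and 9 constitutive members fell (median -0.28), against 45.8% of all genes called, 16.6% higher and 29.2% lower. At 96 h 12 cycle-linked members fell and 1 rose (median -0.75), and 8 constitutive members fell (median -0.26), against 51.1% called, 20.8% higher and 30.3% lower. The shares of constitutive members that fell, 60% at 48 h and 53.3% at 96 h, were above those of all genes. They lie nearer to the background than the cycle-linked shares, 92.9% and 85.7%. Median centring moved the median of all genes by 0.10 at 48 h, from -0.09 to 0.01, and the share of higher calls there from 36.3% to 54.9%. Under it 10 cycle-linked and 7 constitutive members still fell and 1 cycle-linked member rose. The falls lost under it were those of RBBP8, RAD54L, EME1, ATR and FANCE. In bulk RNA, fewer cells in S or G2 phase and less RNA per cell cannot be told apart.

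**Figure D1:**
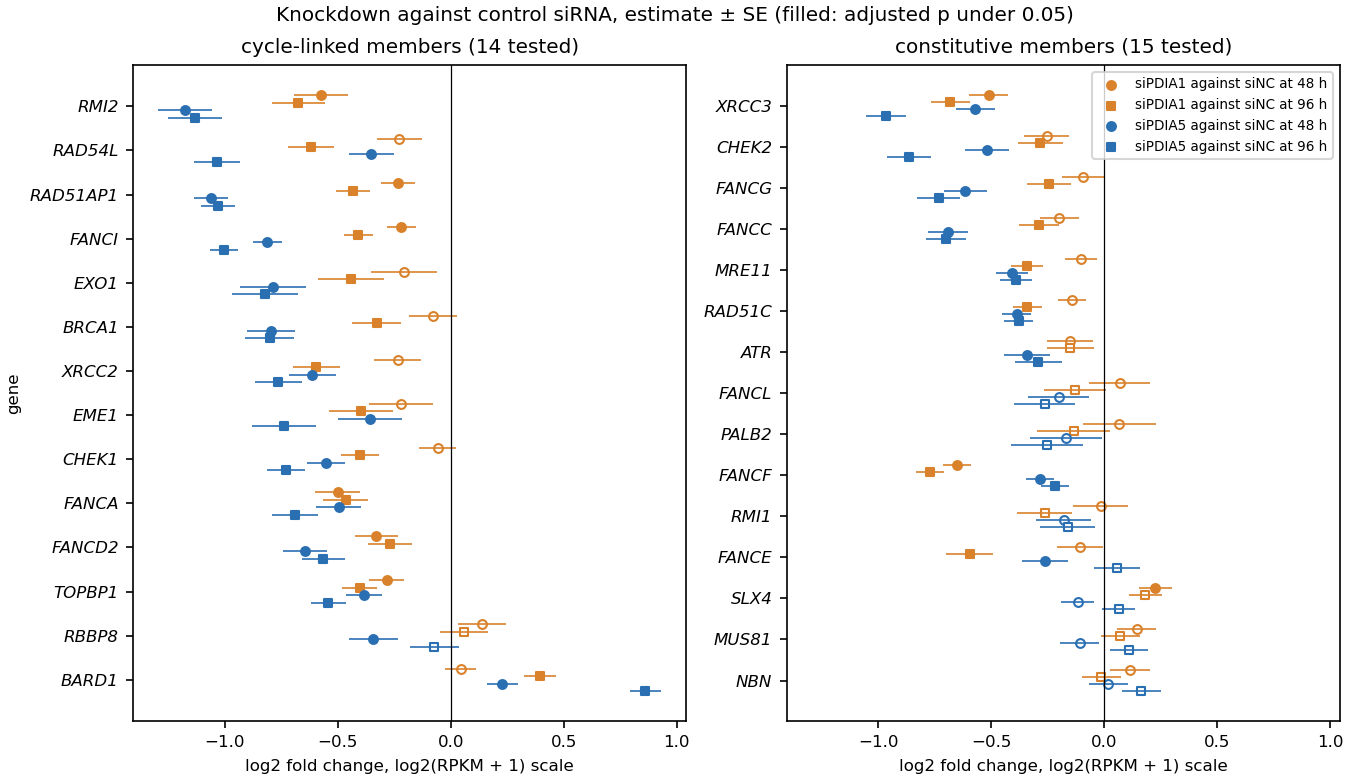
Log2 fold change on the log2(RPKM + 1) scale (x axis) of the 14 cycle-linked and 15 constitutive tested members (y axis), for each knockdown against siNC; points are estimates, bars are standard errors, circles are 48 h, squares are 96 h, and filled symbols have an adjusted p under 0.05. Nearly all cycle-linked points lie left of 0 with siPDIA5 (blue) farther left than siPDIA1 (orange) for most genes, and BARD1 lies to the right.

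BRCA1 fell and BARD1 rose with siPDIA5 at both times and with siPDIA1 at 96 h. With siPDIA1 at 48 h neither passed the test, with log2 fold changes of -0.08 ± 0.11 for BRCA1 (adjusted p = 0.625) and 0.04 ± 0.07 for BARD1 (adjusted p = 0.665), and with siNC over time both fell. BRCA1 encodes a ubiquitin ligase that is stable mainly as a dimer with BARD1, its partner protein. BRCA1 was at 5.26, 5.26 and 5.303 RPKM with siNC at 48 h, 4.84, 5.17 and 4.82 with siPDIA1 and 2.57, 2.68 and 2.602 with siPDIA5. By 96 h it was at 2.52, 4.102 and 3.31 with siNC, 2.42, 2.66 and 2.13 with siPDIA1 and 1.405, 1.23 and 1.73 with siPDIA5. The siPDIA5 libraries lay below all siNC libraries at each time, and the siPDIA1 libraries at 96 h overlapped siNC. BRCA1 fell by 0.79 ± 0.11 with siPDIA5 at 48 h (adjusted p = 2.05e-05) and by 0.80 ± 0.11 at 96 h (adjusted p = 1.26e-05). It fell by 0.33 ± 0.11 with siPDIA1 at 96 h (adjusted p = 0.021). That last call was lost without siNC 96 h replicate 2 (adjusted p = 0.114), siNC 96 h replicate 3 (0.0547) or siPDIA1 96 h replicate 3 (0.0876).

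BARD1 was at 9.33, 10.2 and 10.2 RPKM with siNC at 48 h, 11.1, 10.02 and 9.67 with siPDIA1 and 12.3, 11.9 and 11.1 with siPDIA5. Its 96 h levels were 6.37, 7.92 and 6.900 with siNC, 9.403, 9.89 and 9.42 with siPDIA1 and 13.8, 13.2 and 13.8 with siPDIA5. The 3 groups did not overlap at 96 h, and siPDIA5 was the highest. BARD1 rose with siPDIA5 by a log2 fold change of 0.86 ± 0.07 at 96 h (adjusted p = 3.99e-08) and with siPDIA1 by 0.39 ± 0.07 (adjusted p = 0.000211). The siPDIA5 rise at 48 h, 0.23 ± 0.07 (adjusted p = 0.0126), was lost without siNC 48 h replicate 1 (0.057) or siPDIA5 48 h replicate 1 (0.0531). PALB2, which bridges BRCA1 and BRCA2, passed no test against siNC and was at 2.72 ± 0.498 RPKM with siNC and 2.13 ± 0.502 with siPDIA5 at 96 h.

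**Figure D2:**
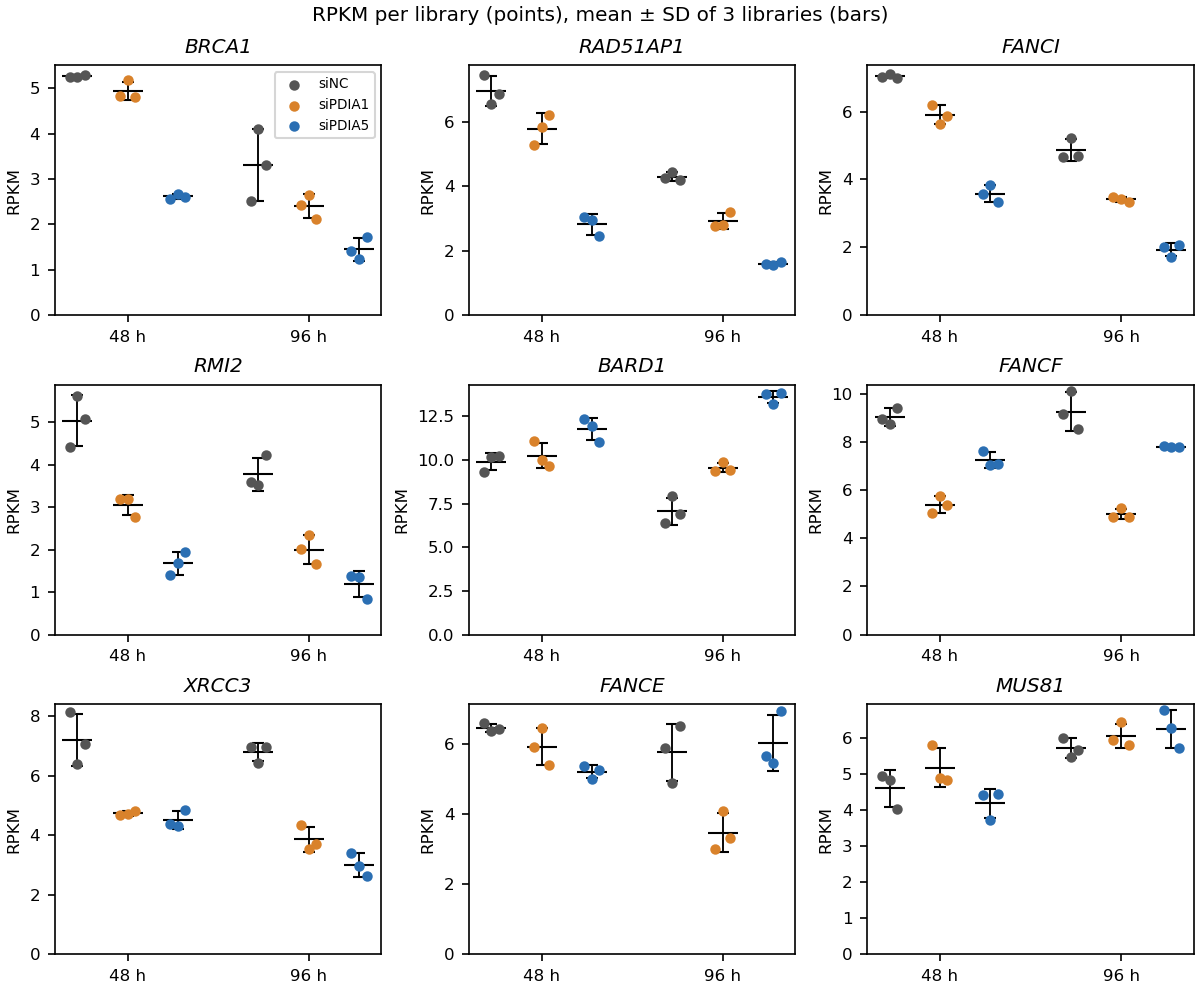
RPKM (y axis) of 9 members in each of the 18 libraries, by time (x axis) and siRNA (colour); points are libraries and bars are the mean and SD of 3. BRCA1, RAD51AP1, FANCI and RMI2 are lowest with siPDIA5 at each time, BARD1 is highest with siPDIA5, and FANCF is lowest with siPDIA1.

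Of the end resection genes, MRE11 and EXO1 fell in 3 of 4 comparisons with siNC and NBN in none. MRE11 is the nuclease of the MRN complex, whose other subunits are RAD50 and NBN, and EXO1 is an exonuclease that lengthens the resected tract. MRE11 was at 5.15 ± 0.168 RPKM with siNC at 48 h and 3.63 ± 0.1995 with siPDIA5 (SD, n = 3). It fell by 0.41 ± 0.07 with siPDIA5 at 48 h (adjusted p = 0.000198) and by 0.39 ± 0.07 at 96 h (adjusted p = 0.000216), and with siPDIA1 at 96 h by 0.34 ± 0.07 (adjusted p = 0.000903). NBN, the MRN subunit that recruits ATM, lay at 6.96 ± 0.273 with siNC and 7.07 ± 0.638 with siPDIA5 at 48 h, with groups that overlapped. EXO1 was at 5.27, 5.32 and 4.37 RPKM with siNC and 2.75, 2.86 and 1.87 with siPDIA5 at 48 h. It fell by 0.79 ± 0.15 with siPDIA5 (adjusted p = 0.000366) and at 96 h by 0.82 ± 0.15 (adjusted p = 0.000189). Its fall with siPDIA1 at 96 h, by 0.44 ± 0.15 (adjusted p = 0.021), was lost without siNC 96 h replicate 2 (0.0724), siNC 96 h replicate 3 (0.07) or siPDIA1 96 h replicate 3 (0.124). RBBP8, which starts resection with MRE11, fell only with siPDIA5 at 48 h among these comparisons, by 0.34 ± 0.11 (adjusted p = 0.0159). This call was lost without siNC 48 h replicate 2 (0.0691) or siPDIA5 48 h replicate 3 (0.0789), and under median centring (0.0665).

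Of the recombinase paralogs and partners that passed the filter, XRCC3 and RAD51AP1 fell in 4 comparisons with siNC, and XRCC2, RAD51C and RAD54L in 3. RAD51AP1, a cofactor that stimulates strand pairing, was at 7.47, 6.56 and 6.88 RPKM with siNC, 5.27, 5.85 and 6.23 with siPDIA1 and 3.05, 2.97 and 2.45 with siPDIA5 at 48 h. The levels at 96 h were 4.25, 4.46 and 4.21, 2.78, 2.79 and 3.21 and 1.59, 1.56 and 1.65, in the same order. The 3 groups did not overlap at either time, and siPDIA5 was lowest. RAD51AP1 fell by 1.06 ± 0.08 with siPDIA5 at 48 h (adjusted p = 1.91e-08) and by 1.03 ± 0.08 at 96 h (adjusted p = 1.51e-08). With siPDIA1 it fell by 0.43 ± 0.08 at 96 h (adjusted p = 0.000203) and by 0.23 ± 0.08 at 48 h (adjusted p = 0.0259). The 48 h call was lost without siNC 48 h replicate 1 (0.107) or 3 (0.0536), or siPDIA1 48 h replicate 1 (0.124) or 2 (0.053).

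RAD54L, a translocase that works with the recombinase, was at 4.65, 4.25 and 4.84 RPKM with siNC, 3.17, 2.200 and 2.59 with siPDIA1 and 1.56, 1.97 and 1.64 with siPDIA5 at 96 h. The groups did not overlap. It fell by 1.04 ± 0.10 with siPDIA5 (adjusted p = 3.93e-07) and with siPDIA1 by 0.62 ± 0.10 (adjusted p = 0.000121) at 96 h. At 48 h it fell by 0.35 ± 0.10 with siPDIA5 (adjusted p = 0.00962), a call lost without siNC 48 h replicate 1 (0.0551) or siPDIA5 48 h replicate 2 (0.0538). Of its exon bases 25.1% overlap LRRC41 on the other strand. XRCC2, a paralog of the recombinase, fell by 0.61 ± 0.10 with siPDIA5 at 48 h (adjusted p = 0.000178) and by 0.76 ± 0.10 at 96 h (adjusted p = 1.45e-05), and with siPDIA1 at 96 h by 0.59 ± 0.10 (adjusted p = 0.000224). RAD51C, the paralog found in both paralog complexes, fell by less, 0.39 ± 0.06 with siPDIA5 at 48 h (adjusted p = 0.000116), 0.38 ± 0.06 at 96 h (adjusted p = 0.000103) and 0.34 ± 0.06 with siPDIA1 at 96 h (adjusted p = 0.000366).

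XRCC3, the partner of RAD51C, was at 8.13, 6.41 and 7.08 RPKM with siNC at 48 h, 4.67, 4.73 and 4.81 with siPDIA1 and 4.37, 4.297 and 4.86 with siPDIA5. After 96 h it stood at 6.97, 6.43 and 6.98, 4.35, 3.55 and 3.71 and 3.403, 2.98 and 2.62, in the same order. Each knockdown group lay below siNC at each time. XRCC3 fell by 0.51 ± 0.09 with siPDIA1 at 48 h (adjusted p = 0.000267) and by 0.68 ± 0.09 at 96 h (adjusted p = 1.04e-05). It fell by 0.57 ± 0.09 with siPDIA5 (adjusted p = 6.17e-05) and by 0.97 ± 0.09 (adjusted p = 1.55e-07). Its level is uncertain, since 76.7% of its exon bases overlap KLC1 on the other strand and no source used states the strand setting of the counting. The same limit holds, with smaller shares, for FANCL (19.7%), EME1 (16.4%), ATR (16.4%), MUS81 (14.1%) and FANCF (11.3%).

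In the complex that dissolves joined DNA molecules, RMI2 fell in all 4 comparisons and RMI1 in none. Both are subunits that bind the BLM helicase. RMI2 was at 4.41, 5.62 and 5.07 RPKM with siNC, 3.19, 3.19 and 2.77 with siPDIA1 and 1.39, 1.69 and 1.95 with siPDIA5 at 48 h. Its levels at 96 h were 3.58, 3.52 and 4.22, 2.01, 2.34 and 1.66 and 1.38, 1.36 and 0.839, in the same order. The 3 groups did not overlap at either time. RMI2 fell by 1.17 ± 0.12 with siPDIA5 at 48 h (adjusted p = 1.02e-06) and by 1.13 ± 0.12 at 96 h (adjusted p = 9.29e-07), and with siPDIA1 by 0.57 ± 0.12 (adjusted p = 0.00153) and 0.67 ± 0.12 (adjusted p = 0.000247). RMI1 was at 9.58 ± 0.788 RPKM with siNC and 8.39 ± 1.39 with siPDIA5 at 48 h, within the spread of its libraries. EME1, the partner of the MUS81 nuclease, fell by 0.74 ± 0.14 with siPDIA5 at 96 h (adjusted p = 0.000392), from 3.18, 3.85 and 4.39 to 1.84, 1.697 and 2.07 RPKM. Its falls with siPDIA5 at 48 h (adjusted p = 0.0491) and siPDIA1 at 96 h (0.0312) were not kept when single libraries were left out, with adjusted p up to 0.224 and 0.13. The first was lost on leaving out any of 14 libraries, the second on leaving out siNC 96 h replicate 2 or 3 or any siPDIA1 96 h library. MUS81 itself passed no test against siNC and was at 5.71 ± 0.272 RPKM with siNC and 6.24 ± 0.527 with siPDIA5 at 96 h. SLX4, the scaffold that binds MUS81, rose with siPDIA1 at 48 h by 0.22 ± 0.07 (adjusted p = 0.0252), a call lost without siNC 48 h replicate 1 (0.0692) or 3 (0.0587) or siPDIA1 48 h replicate 1 (0.065) or 2 (0.0746).

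Among the checkpoint genes, TOPBP1 fell in all 4 comparisons with siNC, CHEK1 and CHEK2 in 3, and ATR in 2. TOPBP1 activates the ATR kinase, which phosphorylates CHEK1, while CHEK2 is the effector of ATM. TOPBP1 was at 10.03 ± 0.362 RPKM with siNC and 8.06 ± 0.175 with siPDIA1 at 48 h. It fell by 0.28 ± 0.08 with siPDIA1 at 48 h (adjusted p = 0.011) and 0.40 ± 0.08 at 96 h (adjusted p = 0.000574), and with siPDIA5 by 0.38 ± 0.08 (adjusted p = 0.000868) and 0.54 ± 0.08 (adjusted p = 2.74e-05). CHEK1 was at 5.12, 5.84 and 5.53 RPKM with siNC at 96 h, 3.93, 4.23 and 3.59 with siPDIA1 and 2.93, 3.13 and 2.71 with siPDIA5. It fell by 0.40 ± 0.08 with siPDIA1 (adjusted p = 0.000946) and by 0.73 ± 0.08 with siPDIA5 (adjusted p = 2.27e-06), and at 48 h by 0.55 ± 0.08 with siPDIA5 (adjusted p = 5.92e-05). CHEK2 was at 4.86, 4.21 and 4.86 RPKM with siNC and 2.47, 1.92 and 1.93 with siPDIA5 at 96 h, which did not overlap. It fell by 0.52 ± 0.10 with siPDIA5 at 48 h (adjusted p = 0.00047) and 0.86 ± 0.10 at 96 h (adjusted p = 2.2e-06). Its fall with siPDIA1 at 96 h (0.28 ± 0.10, adjusted p = 0.0279) was lost without siNC 96 h replicate 1 (0.0823) or 3 (0.0878) or siPDIA1 96 h replicate 1 (0.0918) or 3 (0.0613). ATR fell by 0.34 ± 0.10 with siPDIA5 at 48 h (adjusted p = 0.0128) and 0.29 ± 0.10 at 96 h (adjusted p = 0.0263). It was at 1.49, 1.801 and 1.65 RPKM with siNC and 1.24, 1.04 and 0.971 with siPDIA5 at 48 h. The first was lost without siNC 48 h replicate 2 (0.0519), and the second without siNC 96 h replicate 2 (0.139) or 3 (0.0538) or siPDIA5 96 h replicate 1 (0.0591) or 3 (0.073).

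Genes of the Fanconi core complex did not move as 1 unit. FANCF, a core adaptor, was at 8.94, 8.73 and 9.43 RPKM with siNC at 48 h, 5.04, 5.75 and 5.38 with siPDIA1 and 7.62, 7.03 and 7.07 with siPDIA5. In the 96 h libraries it was at 9.14, 10.1 and 8.54, 4.89, 5.24 and 4.87 and 7.81, 7.78 and 7.804, in the same order. The 3 groups did not overlap at either time, and here siPDIA1 was the lowest. FANCF fell by 0.65 ± 0.06 with siPDIA1 at 48 h (adjusted p = 6.91e-07) and 0.77 ± 0.06 at 96 h (adjusted p = 5.98e-08), and with siPDIA5 by 0.28 ± 0.06 (adjusted p = 0.00124) and 0.22 ± 0.06 (adjusted p = 0.00676). FANCE, which links the core to FANCD2, was at 5.87, 4.87 and 6.49 RPKM with siNC at 96 h, 2.99, 4.08 and 3.32 with siPDIA1 and 5.65, 5.44 and 6.92 with siPDIA5. It fell by 0.60 ± 0.10 with siPDIA1 (adjusted p = 0.000188), and its estimate with siPDIA5 was 0.06 ± 0.10 (adjusted p = 0.687). At 48 h its fall with siPDIA5, by 0.26 ± 0.10 (adjusted p = 0.0459), was lost on leaving out any of 10 libraries, with adjusted p up to 0.121, and under median centring (0.257).

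FANCC and FANCG, other core subunits, had the opposite order. FANCC was at 2.87, 2.56 and 2.599 RPKM with siNC, 2.38, 1.89 and 2.35 with siPDIA1 and 1.16, 1.28 and 1.38 with siPDIA5 at 48 h. It fell by 0.69 ± 0.09 with siPDIA5 at 48 h (adjusted p = 1.01e-05) and 0.70 ± 0.09 at 96 h (adjusted p = 5.75e-06). FANCG was at 12.8, 12.3 and 11.9 RPKM with siNC and 7.396, 7.51 and 8.22 with siPDIA5 at 48 h, and fell by 0.62 ± 0.10 (adjusted p = 7.41e-05) and at 96 h by 0.73 ± 0.10 (adjusted p = 8.85e-06). The falls with siPDIA1 at 96 h were lost for FANCC (adjusted p = 0.0135) without siNC 96 h replicate 1 (0.0668), and for FANCG (adjusted p = 0.0468) on leaving out any of 11 libraries, with adjusted p up to 0.149. FANCA, a core subunit of the cycle-linked class, fell by 0.50 ± 0.10 with siPDIA1 at 48 h (adjusted p = 0.00108) and by 0.47 ± 0.10 at 96 h (adjusted p = 0.00126), and with siPDIA5 by 0.50 ± 0.10 (adjusted p = 0.000774) and 0.69 ± 0.10 (adjusted p = 2.66e-05). Of its exon bases 23.6% overlap ZNF276 on the other strand. FANCL, the ubiquitin ligase subunit, passed no test and was between 0.663 and 1.66 RPKM in all libraries.

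The substrates of the core complex, FANCD2 and FANCI, fell in all 4 comparisons. They form the clamp that is ubiquitinated at crosslinks. FANCI was at 7.03, 7.10 and 7.0 RPKM with siNC, 6.202, 5.65 and 5.88 with siPDIA1 and 3.56, 3.84 and 3.35 with siPDIA5 at 48 h. Values at 96 h were 4.67, 5.23 and 4.705, 3.47, 3.42 and 3.34 and 2.01, 1.705 and 2.08, in the same order. The 3 groups did not overlap at either time. FANCI fell by 0.81 ± 0.06 with siPDIA5 at 48 h (adjusted p = 5.69e-08) and fell by 1.003 ± 0.06 at 96 h (adjusted p = 2.98e-09), and with siPDIA1 by 0.41 ± 0.06 at 96 h (adjusted p = 7.4e-05). Its fall with siPDIA1 at 48 h, by 0.22 ± 0.06 (adjusted p = 0.0142), was lost without siPDIA1 48 h replicate 2 (0.0619). FANCD2 was at 4.17 ± 0.296 RPKM with siNC, 3.12 ± 0.135 with siPDIA1 and 2.32 ± 0.296 with siPDIA5 at 48 h. It fell by 0.64 ± 0.10 with siPDIA5 at 48 h (adjusted p = 5.59e-05) and 0.56 ± 0.10 at 96 h (adjusted p = 0.000146). With siPDIA1 its falls at 48 h (adjusted p = 0.0157) and 96 h (0.0339) were lost without siNC 48 h replicate 2 (0.0642) or siPDIA1 48 h replicate 2 (0.0571), and without siNC 96 h replicate 2 (0.179), siPDIA1 96 h replicate 1 (0.0598), 2 (0.105) or 3 (0.0505).

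The 9 members under the filter were fitted with no filter, where p-values were adjusted over all genes above 0. BLM, the helicase of the dissolution complex, fell in all 4 comparisons with siNC, from 1.32, 1.68 and 1.85 RPKM with siNC at 48 h to 1.03, 1.099 and 1.096 with siPDIA1 (adjusted p = 0.0365) and 0.722, 0.8300 and 0.597 with siPDIA5 (adjusted p = 0.000286). At 96 h its adjusted p was 0.0334 with siPDIA1 and 0.00169 with siPDIA5. BRCA2, which loads the recombinase, fell in both siPDIA5 comparisons, from 1.31 ± 0.226 to 0.573 ± 0.171 RPKM at 48 h (adjusted p = 0.00312) and from 0.7500 ± 0.188 to 0.304 ± 0.121 at 96 h (adjusted p = 0.0161). FANCB, a core subunit, and BRIP1, a helicase that binds BRCA1, also fell in both siPDIA5 comparisons. RAD51D, a paralog, fell with siPDIA5 at 48 h (adjusted p = 0.037). RAD54B, RAD50, ATM and FANCM passed no test against siNC. The levels of RAD50 and RAD54B are uncertain, since 79.7% and 59.1% of their exon bases overlap another gene on the same strand.

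Proteins that work as partners were set side by side as RPKM ratios, for pairs chosen after the values were seen. The ratio of BARD1 to BRCA1 was 1.88 ± 0.0909 with siNC at 48 h, 2.08 ± 0.187 with siPDIA1 and 4.50 ± 0.277 with siPDIA5 (SD, n = 3). At 96 h it was 2.18 ± 0.310, 4.01 ± 0.370 and 9.52 ± 1.40. The siPDIA5 libraries at 96 h lay between 8.01 and 10.8, above all other libraries. The ratio of RMI1 to RMI2 was 1.91 ± 0.0964 with siNC and 5.19 ± 1.68 with siPDIA5 at 48 h, with a wide spread in the latter from 3.52 to 6.87. The ratio of FANCI to FANCD2 was between 1.26 and 2.04 over all libraries. At 96 h it was 1.26 to 1.36 with siPDIA5, below the 1.57 to 2.04 with siNC and the 1.56 to 1.796 with siPDIA1. These ratios describe the libraries and carry no test.

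**Figure D3:**
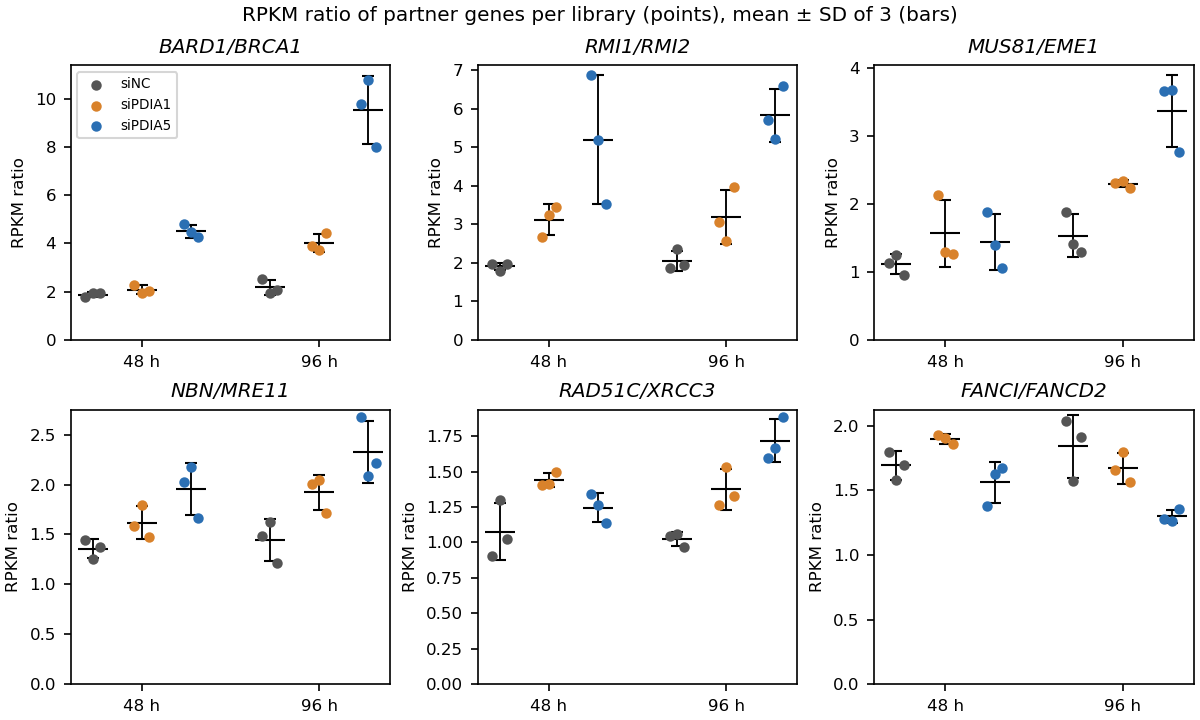
RPKM ratio (y axis) of 6 partner pairs in each library, by time (x axis) and siRNA (colour); points are libraries and bars are the mean and SD of 3. The ratio of BARD1 to BRCA1 is highest with siPDIA5 at 96 h, and that of FANCI to FANCD2 is lowest there.

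Genes of the same pathways outside the members are set beside all tested genes, of which 17.4%, 25.2%, 29.2% and 30.3% fell with siPDIA1 at 48 h and 96 h and siPDIA5 at 48 h and 96 h. Of 52 tested genes in a list of 61 other recombination, crosslink and checkpoint genes, 16 and 25 fell with siPDIA1 at 48 h and 96 h and 31 and 29 with siPDIA5, while 0, 2, 1 and 1 rose. The shares that fell were 30.8%, 48.1%, 59.6% and 55.8%. RPA2, a subunit of the single-strand binding protein RPA, fell by 0.78 ± 0.05 with siPDIA5 at 48 h (adjusted p = 2.86e-09), and H2AX, the histone variant marked at breaks, by 1.37 ± 0.07 at 96 h (adjusted p = 2.78e-10). TONSL, a scaffold for repair of stalled forks, fell by 1.09 ± 0.05 with siPDIA5 at 96 h (adjusted p = 1.92e-10). UBE2T, the conjugating enzyme that ubiquitinates FANCD2, fell there by 1.03 ± 0.08 (adjusted p = 4.1e-08). Of 13 tested end-joining genes, 3, 4, 6 and 6 fell in the same order and 1, 1, 1 and 0 rose. The shares that fell with siPDIA1, 23.1% and 30.8%, were near those of all genes, and with siPDIA5 they were 46.2% at each time. XRCC5 and XRCC6, which encode the Ku dimer that binds broken ends, were the called genes of that list with the smallest adjusted p in all 4 comparisons, XRCC5 with a fall of 0.68 ± 0.04 with siPDIA5 at 96 h (adjusted p = 3.85e-10).

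Markers of S phase and of G2/M moved beside the members. Of 38 tested S phase markers outside the members, 12 and 28 fell with siPDIA1 at 48 h and 96 h, and 36 fell with siPDIA5 at each time. Of 54 tested G2/M markers 31, 35, 49 and 51 fell. The summed level of 40 S phase markers was 862 to 883 RPKM with siNC at 48 h, 739 to 754 with siPDIA1 and 530 to 553 with siPDIA5. The summed level of the 19 cycle-linked members in the same groups was 87.4 to 91.5, 75.1 to 77.0 and 54.5 to 59.3 RPKM, and that of the 19 constitutive members 87.9 to 91.4, 79.6 to 84.4 and 66.6 to 70.8. At 96 h the cycle-linked sum was 58.4 to 70.5, 47.9 to 50.8 and 40.8 to 42.9 RPKM. The 3 groups did not overlap for these sums at 48 h, nor for the cycle-linked sum at 96 h. The constitutive sum at 96 h was 78.2 to 82.4 RPKM with siNC, 62.0 to 65.3 with siPDIA1 and 61.6 to 64.1 with siPDIA5, and the knockdowns overlapped. The cycle-linked sum includes BARD1, which at 96 h had means of 7.06 RPKM with siNC, 9.57 with siPDIA1 and 13.6 with siPDIA5. The sum therefore understates the fall of the other members. The part of cell cycle phase in the members' change was not tested. Of 19 tested E2F, DREAM and MuvB regulators, 6 and 11 fell and 3 and 3 rose with siPDIA1. With siPDIA5 13 and 11 fell and 0 and 2 rose. The shares that fell, 31.6%, 57.9%, 68.4% and 57.9%, were above those of all genes. The shares that rose, 15.8%, 15.8%, 0% and 10.5%, were below them. MYBL2 and FOXM1, activators of late cell cycle genes, fell in all 4 comparisons. E2F1 rose with siPDIA1 at 48 h by 0.40 ± 0.08 (adjusted p = 0.00137) and fell by 0.87 ± 0.08 with siPDIA5 at 96 h (adjusted p = 2.55e-07).

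**Figure D4:**
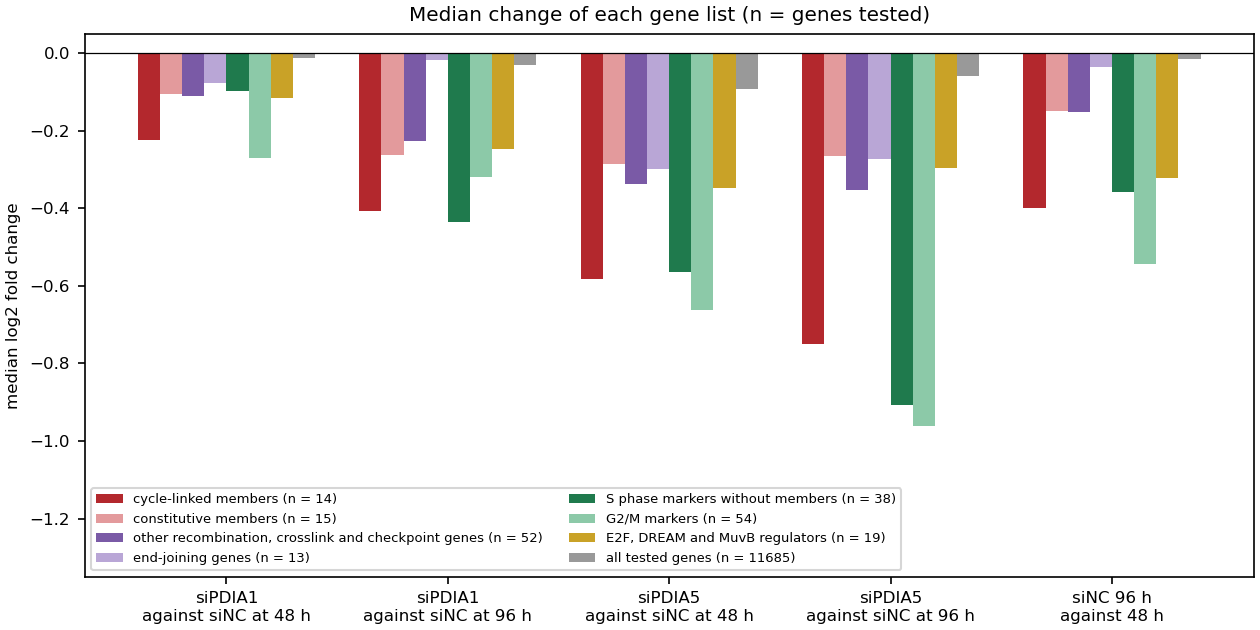
Median log2 fold change (y axis) of each gene list and of all 11685 tested genes in 5 comparisons (x axis); each bar is a median over the tested genes of the list, with no error bar. The cycle-linked members have a median of -0.75 with siPDIA5 at 96 h, against -0.26 for the constitutive members and -0.06 for all tested genes.

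The direct comparison of both knockdowns asked which members differed between them. P4HB fell with siPDIA1 and rose with siPDIA5, so it does not set a loss of P4HB alone against a loss of PDIA5 alone. At 48 h, 9 of 14 cycle-linked members were higher with siPDIA1 than with siPDIA5 and 1 was lower, and 7 of 15 constitutive members were higher and 1 lower, against 41.2% of genes called (26.3% higher, 14.9% lower). Under median centring 8 and 4 were higher and 1 and 1 lower, and the share of higher calls over all genes went from 63.8% to 43.5%. RAD51AP1 was higher with siPDIA1 by 0.83 ± 0.08 (adjusted p = 3.98e-07), BRCA1 by 0.72 ± 0.11 (adjusted p = 6.96e-05) and FANCI by 0.59 ± 0.06 (adjusted p = 2.25e-06). FANCF was lower with siPDIA1 by 0.37 ± 0.06 (adjusted p = 0.000174). At 96 h, 8 cycle-linked and 4 constitutive members were higher with siPDIA1 and 1 and 2 lower, against 48.5% of genes called (27.7% higher, 20.9% lower). FANCE and FANCF were lower with siPDIA1, by 0.65 ± 0.10 (adjusted p = 7.28e-05) and 0.55 ± 0.06 (adjusted p = 1.98e-06), and BARD1 by 0.47 ± 0.07 (adjusted p = 3.9e-05). FANCG and FANCC were higher, by 0.49 ± 0.10 (adjusted p = 0.000521) and 0.41 ± 0.09 (adjusted p = 0.00102). TOPBP1 and FANCA passed neither test, with differences of 0.14 ± 0.08 and 0.22 ± 0.10 at 96 h.

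With siNC alone, cycle-linked members were lower at 96 h than at 48 h: 12 of 14 fell and none rose (median -0.40), and of 15 constitutive members 2 fell and 1 rose (median -0.15), against 24.3% of all genes called, 11.0% higher and 13.3% lower. BRCA1 fell by 0.56 ± 0.11 (adjusted p = 0.0019), BARD1 by 0.44 ± 0.07 (adjusted p = 0.000395) and RAD51AP1 by 0.59 ± 0.08 (adjusted p = 7.71e-05). These and FANCA, FANCD2 and FANCI kept their calls on leaving out any single library. The 15 calls were 7 without siNC 48 h replicate 2 and 8 without siNC 96 h replicate 1 or 3, and no call of the constitutive class was kept in all these fits. S phase and G2/M markers fell in 27 of 38 and 49 of 54 tested genes there. The siPDIA1 effect differed between times for 1 of 29 members, BARD1, which was higher at 96 h, against 5.47% of all genes (2.5% higher). The siPDIA5 effect differed for 3, with BARD1 higher and RAD54L and XRCC3 lower at 96 h, against 18.3% of all genes (9.22% higher, 9.09% lower).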

How the data were processed

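RNA of 18 LNCaP libraries (6 groups of 3) was measured by sequencing. The authors deposited RPKM for each gene and library. Per the submitters' processing notes the tools were R 3.4.1, DESeq2, featureCounts, STAR 2.7.0f and cutadapt 1.8, on hg38 (GRCh38). No source used states the annotation release, the strand setting or how shared reads were treated. Depth was estimated at 29.2 to 43.9 M reads per library from the steps of low values, with exon lengths of GENCODE 29. No counts were used, so no count test was run.

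Values were taken as log2(RPKM + 1), genes averaging 1 RPKM or more were kept, and limma 3.58.1 in R 4.3.3 fitted a mean per group over the 18 libraries, with empirical Bayes and a trend. P-values were adjusted over all 11685 genes in each of 9 comparisons. The fit was also run on simulated data with fewer changed genes than were called against siNC here, and that run is not used as support. The members, classes and lists were chosen with earlier results of these data known. Named genes are all members, and from each other list up to 4 called genes with the smallest adjusted p per comparison. Per-library values are given for the called members that a result turns on. Partner ratios, the shorter E2F motif and the printed windows were chosen after the values were seen. Promoters are RefSeq windows of GRCh38.p14. The labels do not say that replicate numbers mark shared cultures, so no block was used. The median r of deviations was 0.008 over 45 same-number pairs (-0.257 to 0.139) and -0.004 over 90 other pairs (-0.298 to 0.293). The r values largest in size were between siNC 96 h and siPDIA5 48 h libraries. Alternatives were another pseudocount, other filters, median centring, quantile normalization, a replicate block, separate fits, no trend, the uncertain class and leaving out each library.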

Additional observations from a re-analysis of the deposited data

Results flagged for a closer look

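The effect of a knockdown differed between 96 h and 48 h, by limma's interaction term, for 3 of the 29 tested members. Over all tested genes it differed for 5.47% with siPDIA1 and for 18.3% with siPDIA5. The share of members was below that of all genes for each siRNA. For BARD1 the siPDIA5 effect was higher at 96 h by 0.63 on the log2 scale (adjusted p = 0.000355). In 3 of 3 siNC libraries at 96 h BARD1 was below the siNC libraries at 48 h, and in 3 of 3 siPDIA5 libraries it was above the siPDIA5 libraries at 48 h. The siPDIA1 effect on BARD1 was higher at 96 h by 0.35 (adjusted p = 0.0466), a call lost on leaving out any of 14 libraries. For RAD54L the siPDIA5 effect differed by -0.68 (adjusted p = 0.00353), with a fall of 0.35 at 48 h and of 1.04 at 96 h. For XRCC3 it differed by -0.40 (adjusted p = 0.0356), a call lost on leaving out any of 7 libraries, with adjusted p up to 0.0923.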

How the results depend on the processing

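Of 126 calls of a member in a comparison, 88 kept their call and direction in every setting run and none reversed. Calls were lost with no filter (26), in fits of the groups compared alone (21), with quantile normalization (14), median centring (13), the replicate block (5), no trend (2) and a pseudocount of 0.25 (1), and 37 on leaving out some library. A filter at a mean RPKM of 5 left fewer members, and all 46 calls it tested were kept. It left 3, 8, 8 and 7 members called for siPDIA1 at 48 h and 96 h and siPDIA5 at 48 h and 96 h. Cycle-linked members lower were 1, 2, 2 and 2, and constitutive members lower were 5, 5 and 4 in the last 3. Of the cycle-linked class only BARD1, TOPBP1 and CHEK1 averaged 5 RPKM or more. These counts and those of the main filter therefore cover different members. The filter at 5 left 6 and 6 members called between the knockdowns and 5 for siNC over time. Counting the uncertain class as cycle-linked left 5 constitutive members lower with siPDIA1 at 96 h. That move takes 5 of the 15 tested members out of the constitutive class, of which 3 fell there.

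For the siPDIA1 effect over time 0 members were called with no filter, in separate fits or with no trend. For the siPDIA5 effect over time 5 of 29 members were called with median centring and 5 with quantile normalization. Of all 11685 genes, 782 were called higher and 1419 lower with centring, and 839 and 1055 with quantile normalization. The share of members called was near that of all genes in both. Over all genes the share of higher calls went from 50.4% to 35.5% with centring. For siNC over time 8 were called with no filter and 7 in separate fits. The cause was not tested. Leaving out 1 library gave 6 to 10 members called with siPDIA1 at 48 h (3 to 7 cycle-linked lower, 2 to 3 constitutive lower) and 15 to 22 at 96 h (8 to 12, and 6 to 8). It gave 19 to 23 with siPDIA5 at 48 h (11 to 13, and 7 to 9) and 20 to 22 at 96 h (12 to 12, and 7 to 9). It gave 15 to 18 and 12 to 16 between the knockdowns, 0 to 2 and 2 to 3 for the effects over time, and 7 to 16 for siNC over time.

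With the replicate number as a block, 9, 21, 22 and 21 members were called in the 4 comparisons with siNC, and 0 for the siPDIA1 effect over time. Of 45 same-number pairs 4 had r above 0.1, and of 90 other pairs 3. Such correlations cannot tell whether the numbers mark shared cultures.

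Low levels limit the 9 members under the filter, and log2 values with a pseudocount understate their change.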
